A study of Mus musculus with 18 samples.

Results

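Spleen RNA of tumour-free mice titled with the code GC (group N_GC, replicates 11, 36 and 94) was compared with spleen RNA of tumour-free mice under code I (group N_I, replicates 18, 92 and 96). These 6 libraries were taken by title from the 18 RNA-seq libraries of the series, and a gene was tested when it reached 1 TPM (a length-corrected share of all transcripts) in at least 3 of the 18. The third tumour-free group, code P (N_P, replicates 17, 29 and 38), was used to see which differences were also present against another group. The same codes in mice that carried a tumour (T_GC, replicates 10, 21 and 37, and T_I, replicates 8, 12 and 27) were used to test whether a difference depended on the tumour.

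Per the series text, the mice were female Balb/c. Tumour-bearing mice had 4T1 cells, a mouse mammary carcinoma line known for secreting G-CSF, placed in the mammary pad. A G-CSF antibody, a PD-1 antibody or an anti-IgG antibody in PBS was injected into the peritoneum at 10 mg/kg on days 18, 21 and 24, and splenocytes were taken on day 29. The labels do not spell out the codes GC, P and I, so the groups are called here by their codes. No genotype other than the strain, no age and no statement that each library is a separate animal are given, so the p-values measure only the spread between libraries. The labels also conflict. The cell type field calls all 18 samples tumour-bearing, the treatment field of every T sample names the PD-1 antibody whatever its code, and that of every N sample reads WT. The titles separate N, read here as no tumour, from T, and the groups follow the titles. The series text does not say whether tumour-free mice were injected on the same days. The files give TPM without read counts, so the depth is unknown. Between 14890 and 15272 genes reached 1 TPM in each of the 6 libraries, mt-Atp8 was the highest gene in each, and Pearson's r of log2(TPM + 1) across genes was 0.968 to 0.969 within N_GC, 0.964 to 0.970 within N_I and 0.956 to 0.967 between them. B and T cell genes were abundant, and of 12 pancreas genes none passed the filter. Splenocytes are a mixture, and in such bulk RNA fewer cells of a type and less RNA per cell cannot be told apart.

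Neutrophils mature in the bone marrow and, in mice, also in the spleen. Their granule proteins are made in a set order: primary (azurophil) granules in promyelocytes, then secondary and tertiary granules in myelocytes and later stages, while receptors such as Cxcr2 mark the mature cell. G-CSF (encoded by Csf3) acts through its receptor Csf3r and is the main growth factor of this lineage. Csf3 mRNA itself was listed at 0.05, 0.54 and 0.18 TPM in N_GC and at 0.11, 0.06 and 0.11 TPM in N_I, below the filter, and was not tested.

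Of 16635 genes tested, 458 (2.75%) differed between N_GC and N_I at an adjusted p under 0.05 (limma on log2(TPM + 1), Benjamini-Hochberg over all genes). Of these, 383 (2.3%) were lower in N_GC and 75 (0.451%) were higher, and 2622 genes had an unadjusted p under 0.05. The median difference over all genes was 0.04 on the log2 scale, and 42.1% of the genes tested had a difference below 0. All log2 differences below are N_GC minus N_I on the log2(TPM + 1) scale unless another pair is named, which understates changes of genes near 1 TPM. Genes named for the size of their difference were required not to overlap between the groups (the size rule). For them the lack of overlap repeats that rule and adds no support. List members named because they were called were chosen by a small p in these same libraries. Their lack of overlap is therefore no separate support either. Over all genes tested, 23.3% had no overlap. Most neutrophil genes were among the genes called lower: of the 52 members tested in the lists of primary granule, secondary and tertiary granule and mature neutrophil genes, 40 were lower in N_GC and 0 were higher. The count of calls depended on which libraries were fitted: with only these 6 libraries in the fit it was 24, of which 16 were among the 458. In that fit the filter also used only the 6 libraries, which left 15156 genes, of which 2576 had an unadjusted p under 0.05 (limma). Leaving out 1 library gave between 145 calls (without N_I replicate 96) and 686 calls (without N_I replicate 18), with 220, 212 and 281 without N_GC replicates 11, 36 and 94 and 228 without N_I replicate 92.

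**Figure D1:**
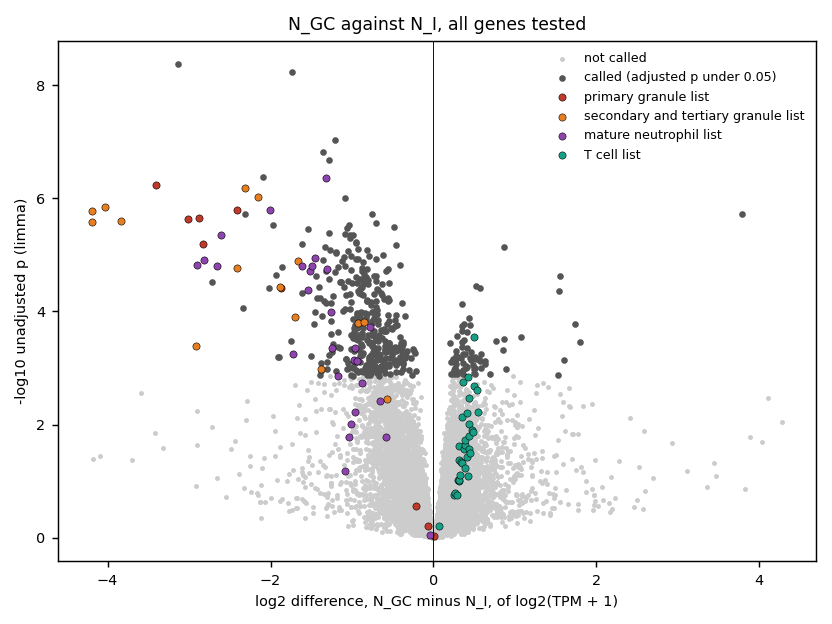
Log2 difference N_GC minus N_I (horizontal axis) against -log10 of the unadjusted limma p (vertical axis) for the 16635 genes tested; grey points are genes not called, dark points are called, and coloured points are members of 4 gene lists. Granule and mature neutrophil genes lie to the left, down to -4.19, and all 33 T cell genes lie to the right of 0, at up to 0.55.

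Genes of the primary granule proteases and of myeloperoxidase were at about 1 TPM or less in N_GC spleens. Mpo, the myeloperoxidase that makes hypochlorous acid, was at 1.05, 1 and 0.88 TPM in N_GC and at 7.68, 31.1 and 31.8 TPM in N_I, a log2 difference of -3.40 (SE 0.41, adjusted p = 0.0012, limma). Elane, neutrophil elastase, was at 0.94, 0.43 and 0.96 TPM in N_GC and at 3.94, 19.4 and 18.3 TPM in N_I, a difference of -2.83 (adjusted p = 0.00287, limma). The 3 N_GC libraries lay below all 3 N_I libraries for both genes, and N_I replicate 18 was the lowest of its group. Prtn3, proteinase 3, stood at 0.76, 0.24 and 0.75 TPM in N_GC against 4.51, 15.9 and 15.3 TPM in N_I (-2.88). Ctsg, cathepsin G, stood at 0.25, 0.42 and 0.19 TPM in N_GC against 2.51, 9.63 and 7.57 TPM in N_I (-2.41). Fcnb, the lectin ficolin B, stood at 0.20, 0.30 and 0.23 TPM in N_GC against 2.72, 16.9 and 14.1 TPM in N_I (-3.01). These 5 genes showed the same order of groups without overlap, which the size rule required of all but Ctsg. Their adjusted p lay between 0.0012 and 0.00287 (limma). In the whole list 6 of 9 members fell, the sixth being Ms4a3, a membrane protein of granulocyte precursors (-1.88), and the list median was -2.41. Prss57 (-0.21), Ctsc (-0.06) and Serpinb1a (0.01), which did not pass, encode a granule serine protease, the dipeptidyl peptidase that activates the granule proteases and an inhibitor of them. The 6 calls held without each of the 6 libraries in turn, but none passed in the fit on the 6 libraries alone, where the 5 members tested had adjusted p of 0.0824 to 0.101.

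The secondary and tertiary granule list held the 4 genes with the largest falls of those named here. Ngp, neutrophilic granule protein, was at 16.3, 21.3 and 43.4 TPM in N_GC and at 143, 956 and 754 TPM in N_I, a log2 difference of -4.19 (SE 0.54, adjusted p = 0.00178, limma). Camp, the antimicrobial peptide cathelicidin, was at 3.72, 9.37 and 15.03 TPM in N_GC and at 52.4, 323 and 274 TPM in N_I (-4.19, SE 0.56, adjusted p = 0.00197, limma). The groups did not overlap for either gene, as the size rule required, but N_I replicate 18 lay several-fold below the other N_I libraries. Ltf, the iron-binding lactoferrin, was at 4.86, 8.52 and 11.6 TPM in N_GC against 46.4, 281 and 228 TPM in N_I (-4.03, adjusted p = 0.00178, limma). Lcn2, the siderophore-binding lipocalin 2, was at 4.95, 9.95 and 16.2 TPM in N_GC against 50.5, 267 and 233 TPM in N_I (-3.83, adjusted p = 0.00197, limma). Both again had N_GC below every N_I library, and N_GC replicate 94 was the highest of its group for all 4 genes.

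Of the 15 members of this list 14 fell, the other being the protease Adam8 (-0.57, adjusted p = 0.088, limma), and the median was -2.15. Smaller falls were seen for Cd177, a surface partner of proteinase 3 (3.49, 2.54 and 5.78 TPM in N_GC against 10.1, 40.5 and 34.6 TPM in N_I, -2.42). Chil1, a chitinase-like protein, was at 2.42, 1.53 and 1.66 TPM in N_GC against 6.59, 16.9 and 19.8 TPM in N_I (-2.31). Hp, the haemoglobin scavenger haptoglobin, was at 13.9, 10.3 and 24 TPM in N_GC against 52.5, 81.2 and 83.5 TPM in N_I (-2.15). Chil3, another chitinase-like protein, was at 1.55, 2.34 and 7.06 TPM in N_GC against 9.54, 61.5 and 44.2 TPM in N_I (-2.92, adjusted p = 0.0265, limma). It lost its call without N_GC replicate 11, N_GC replicate 36, N_I replicate 92 or N_I replicate 96. The collagenase Mmp8 (-1.70), the gelatinase Mmp9 (-1.66) and the membrane metalloproteinase Mmp25 (-0.85) were among the 14. Over the list, 9 members passed without N_GC replicate 36, N_I replicate 92 or N_I replicate 96, 15 passed without N_I replicate 18, and 0 passed with only the 6 libraries fitted (adjusted p of the called members 0.0796 to 0.169).

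Since these granule genes moved together, the bases before their starts were read from RefSeq promoters (build GRCm38.p6; the TPM were made on GRCm39, so the coordinates serve only the sequences). The first set of lines below shows the 3 of the 4 secondary granule genes above whose window holds TTGCNNAA, the core of the C/EBP binding site, with capitals marking it on either strand. Camp has no match in its window and is not shown. The second set shows 3 primary granule genes chosen in the same way, with capitals marking GAGGAAGT, a PU.1-type ETS site, on either strand; Ctsg and Fcnb have no match and are not shown. Each line holds the 250 bases upstream of the start, 5′ to 3′ on the gene's strand, taken from chr9:110419558-110419807 (+) for Ngp, chr9:111019042-111019291 (+) for Ltf, chr2:32387740-32387989 (-) for Lcn2, chr11:87793534-87793783 (+) for Mpo, chr10:79886062-79886311 (+) for Elane and chr10:79879417-79879666 (+) for Prtn3.
Ngp: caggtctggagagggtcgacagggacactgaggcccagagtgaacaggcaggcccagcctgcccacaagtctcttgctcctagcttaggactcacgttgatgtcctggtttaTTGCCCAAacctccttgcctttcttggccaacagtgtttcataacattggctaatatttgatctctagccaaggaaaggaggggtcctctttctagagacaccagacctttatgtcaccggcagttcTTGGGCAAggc
Ltf: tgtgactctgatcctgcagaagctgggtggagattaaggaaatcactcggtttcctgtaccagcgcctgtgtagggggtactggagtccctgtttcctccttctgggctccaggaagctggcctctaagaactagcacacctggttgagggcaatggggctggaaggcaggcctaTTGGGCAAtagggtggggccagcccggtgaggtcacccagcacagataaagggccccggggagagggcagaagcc
Lcn2: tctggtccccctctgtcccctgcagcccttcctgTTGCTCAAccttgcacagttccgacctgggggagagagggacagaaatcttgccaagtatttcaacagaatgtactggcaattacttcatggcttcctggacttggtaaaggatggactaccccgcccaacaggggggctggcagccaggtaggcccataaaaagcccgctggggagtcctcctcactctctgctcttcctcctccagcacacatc
Mpo: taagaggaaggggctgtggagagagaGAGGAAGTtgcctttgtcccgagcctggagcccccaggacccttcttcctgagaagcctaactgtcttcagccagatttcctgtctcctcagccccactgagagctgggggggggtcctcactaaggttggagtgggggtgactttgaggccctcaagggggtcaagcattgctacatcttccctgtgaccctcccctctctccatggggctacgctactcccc
Elane: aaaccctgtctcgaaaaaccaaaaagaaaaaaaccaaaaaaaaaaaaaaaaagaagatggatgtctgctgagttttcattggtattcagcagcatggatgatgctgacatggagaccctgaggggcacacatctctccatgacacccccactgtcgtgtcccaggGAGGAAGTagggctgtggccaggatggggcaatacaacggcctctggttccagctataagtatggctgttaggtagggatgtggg
Prtn3: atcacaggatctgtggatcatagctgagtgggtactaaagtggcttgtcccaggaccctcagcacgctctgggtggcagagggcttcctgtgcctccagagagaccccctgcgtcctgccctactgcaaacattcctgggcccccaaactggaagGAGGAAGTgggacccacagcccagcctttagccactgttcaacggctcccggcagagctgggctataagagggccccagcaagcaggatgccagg
TTGCNNAA was found in 5 of 13 secondary and tertiary granule promoters matched by symbol (38.5%), in 1 of 7 primary granule promoters (14.3%) and in 6 of 28 promoters of mature neutrophil genes (21.4%), against 9.56% of all 32851 promoters. It was also in 7 of 28 T cell promoters (25%). GAGGAAGT was found in 4 of 7 primary granule promoters (57.1%), 3 of 13 secondary and tertiary granule promoters (23.1%) and 3 of 28 promoters of mature neutrophil genes (10.7%), against 2.44% of all promoters and 1 of 28 T cell promoters (3.57%). These are matches of letters in windows of 250 bases, and with 7 to 28 promoters a list they are descriptions. The counts cover whole lists and include genes that were not called lower. Adam8 is among the 5 with TTGCNNAA, and Ctsc is among the 4 with GAGGAAGT. The pair of motifs share no overlapping match in the 6 promoters printed.

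Genes of the mature neutrophil also fell. S100a9, a subunit of the abundant cytosolic protein calprotectin, was at 297, 297 and 671 TPM in N_GC and at 1204, 3447 and 3271 TPM in N_I, a log2 difference of -2.61 (SE 0.37, adjusted p = 0.00227, limma). Its partner S100a8 was at 98.1, 118 and 226 TPM in N_GC and at 376, 1392 and 1290 TPM in N_I (-2.66, adjusted p = 0.00396, limma). Ly6g, the surface antigen used to identify mouse neutrophils, was at 1.27, 1 and 3.10 TPM in N_GC against 6.75, 31.97 and 29.7 TPM in N_I (-2.91, adjusted p = 0.00396, limma). In each of these, N_I replicate 18 was the library nearest to N_GC, and the groups did not overlap, as the size rule required. Cxcr2, the chemokine receptor that draws neutrophils out of the marrow, was at 7.53, 7.16 and 15.3 TPM in N_GC and at 23.4, 32.7 and 38.3 TPM in N_I (-1.61, adjusted p = 0.00396, limma). Csf3r, the G-CSF receptor, was at 40.8, 33.2 and 74.6 TPM in N_GC and at 109, 129 and 182 TPM in N_I (-1.54, SE 0.27, adjusted p = 0.00595, limma). Slfn4, a Schlafen family gene of myeloid cells, was at 3.15, 4.13 and 13.7 TPM in N_GC against 23.5, 56.3 and 76.3 TPM in N_I (-2.81). For both receptors and for Slfn4, N_GC replicate 94 was the highest of its group and still below all of N_I.

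In all, 20 of 28 mature neutrophil genes tested fell, and the median was -1.25. A difference below 0 was seen in 28 of 28, against 42.1% of all genes tested. Mrgpra2b, a MAS-related receptor, was at 0.85, 0.54 and 2.51 TPM in N_GC against 5.84, 7.63 and 10.04 TPM in N_I (-2.01). Mcemp1, a membrane protein of mast cells and neutrophils, was at 4.85, 4.04 and 5.96 TPM in N_GC against 9.91, 16.9 and 20.4 TPM in N_I (-1.45). Gda, a guanine deaminase, was at 2.34, 2.04 and 2.81 TPM in N_GC against 6.25, 7.16 and 9.12 TPM in N_I (-1.32). The cytokine Il1b (-1.25) and the formyl peptide receptor Fpr2 (-1.30) were also called. Among the 8 that did not pass were Retnlg, a resistin-like protein (-0.96, adjusted p = 0.12), the citrullinating enzyme Padi4 (-1.01, adjusted p = 0.15), Fpr1 (-0.58, adjusted p = 0.19) and Prok2 (-0.04, adjusted p = 0.97; all limma). The count was 12 without N_GC replicate 36 or N_I replicate 96, 13 without N_GC replicate 11, and 1 with only the 6 libraries fitted. The stefin A genes, near-identical cysteine protease inhibitors whose reads cannot be assigned with certainty, had 1 call of 7 and a median of -0.77. It was Stfa2l1, at 4.59, 4.38 and 7.79 TPM in N_GC against 20.4, 22.2 and 26.8 TPM in N_I (-1.90, adjusted p = 0.033, limma). The call was lost without N_GC replicate 11, N_GC replicate 36, N_I replicate 92 or N_I replicate 96.

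Outside the 3 neutrophil lists, the genes with the smallest p were Lrg1 and C5ar1. Lrg1, a secreted leucine-rich glycoprotein stored in neutrophil granules, was at 0.70, 1.09 and 1.69 TPM in N_GC and at 12.6, 17.1 and 25.3 TPM in N_I, a log2 difference of -3.13 (SE 0.25, adjusted p = 4.88e-05, limma). C5ar1, the receptor for the complement fragment C5a, was at 4.63, 3.97 and 5.19 TPM in N_GC and at 14.7, 17.4 and 21.5 TPM in N_I, -1.74 (SE 0.14, adjusted p = 4.88e-05, limma). The libraries of each group lay close together and far from the other group, and no other gene called lower and given here with its value in each library kept its call under each of the 14 alternative settings.

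**Figure D2:**
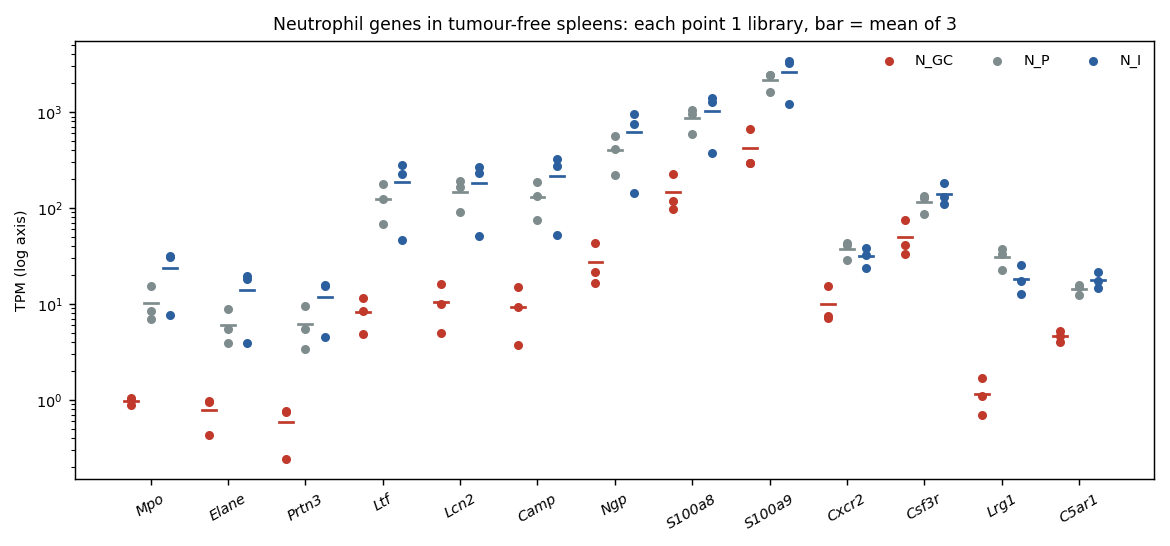
TPM of 13 neutrophil genes on a log axis in the tumour-free libraries of N_GC, N_P and N_I; each point is 1 library and the bar is the mean of 3. For every gene shown the 3 N_GC points lie below all N_P and N_I points, and the lowest N_I point of the granule genes is replicate 18.

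Of 13 myeloid transcription factors 5 were lower. Cebpe, the C/EBP factor needed for secondary granules, was at 0.94, 0.57 and 1.27 TPM in N_GC and at 2.46, 9.75 and 9.43 TPM in N_I (-1.94, adjusted p = 0.0047, limma). Cebpd, a related factor, was at 3.21, 3.10 and 3.66 TPM in N_GC against 5.90, 8.35 and 9.96 TPM in N_I (-1.05). Nfe2, a factor of megakaryocytes, erythroid cells and granulocytes, was at 9.57, 6.64 and 8.56 TPM in N_GC against 15.3, 18.4 and 22.1 TPM in N_I (-1.08). Klf4, a factor of monocytes, was at 3.79, 3.08 and 3.53 TPM in N_GC against 6.90, 7.01 and 6.55 TPM in N_I (-0.81). Spi1, which encodes PU.1, was the other (-0.47), and none of the groups of the 4 genes above overlapped. Among the receptors of colony-stimulating factors, Csf2ra, the binding chain of the GM-CSF receptor, was at 91.1, 82.5 and 91.02 TPM in N_GC and at 124, 151 and 160.2 TPM in N_I (-0.70, adjusted p = 0.00201, limma). Its signalling chain Csf2rb was at 22.6, 13.9 and 21.3 TPM in N_GC against 25.9, 38 and 36.05 TPM in N_I (-0.77). Kit, the receptor of stem cell factor, was at 6.15, 5.41 and 6.36 TPM in N_GC against 8.99, 11.4 and 11.3 TPM in N_I (-0.73). Csf2rb lost its call without any library but N_I replicate 18, and Kit without N_GC replicate 36, N_I replicate 92 or N_I replicate 96. In that list 4 of 10 fell, with a median of -0.70. Without N_I replicate 92 or N_I replicate 96 the count was 2, against 7 without N_I replicate 18. Of 14 genes of G-CSF receptor and STAT signalling, by contrast, only Csf3r itself passed, and the median was 0.00.

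Summed over the 3 neutrophil lists, 53 genes made up 0.102, 0.0988 and 0.178% of all TPM in the N_GC libraries, 0.56, 0.575 and 0.386% in N_P and 0.292, 0.823 and 0.773% in N_I. The means were 0.126% ± 0.0447 in N_GC and 0.629% ± 0.293 in N_I (SD, n = 3 each). N_GC was lower by 4.99-fold (exact permutation p = 0.1, two-sided, the smallest that 3 against 3 allows). The primary granule share was 0.0231% ± 0.00193 in N_GC and 0.0302% ± 0.00477 in N_I (SD, n = 3 each), and its groups overlapped (exact permutation p = 0.2, two-sided). Mpo, Elane, Prtn3, Ctsg and Fcnb averaged 0.24 to 0.98 TPM in N_GC and 6.57 to 23.5 TPM in N_I. Most of this share therefore came from other members of the list, which include the 3 that were not called. The secondary and tertiary granule share was 0.0154% ± 0.00483 in N_GC and 0.152% ± 0.0911 in N_I (SD, n = 3 each). The mature neutrophil share was 0.0878% ± 0.0380 in N_GC and 0.447% ± 0.198 in N_I (SD, n = 3 each). Without N_I replicate 18 the ratio of N_GC to N_I for the 3 lists was 0.158, against 0.201 with it. In the same libraries the summed share of the T cell list was 0.476% ± 0.0137 in N_GC and 0.359% ± 0.0473 in N_I, and that of the B cell list was 1.48% ± 0.0659 in N_GC and 1.44% ± 0.0494 in N_I (SD, n = 3 each). Their part in the neutrophil difference was not tested.

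**Figure D3:**
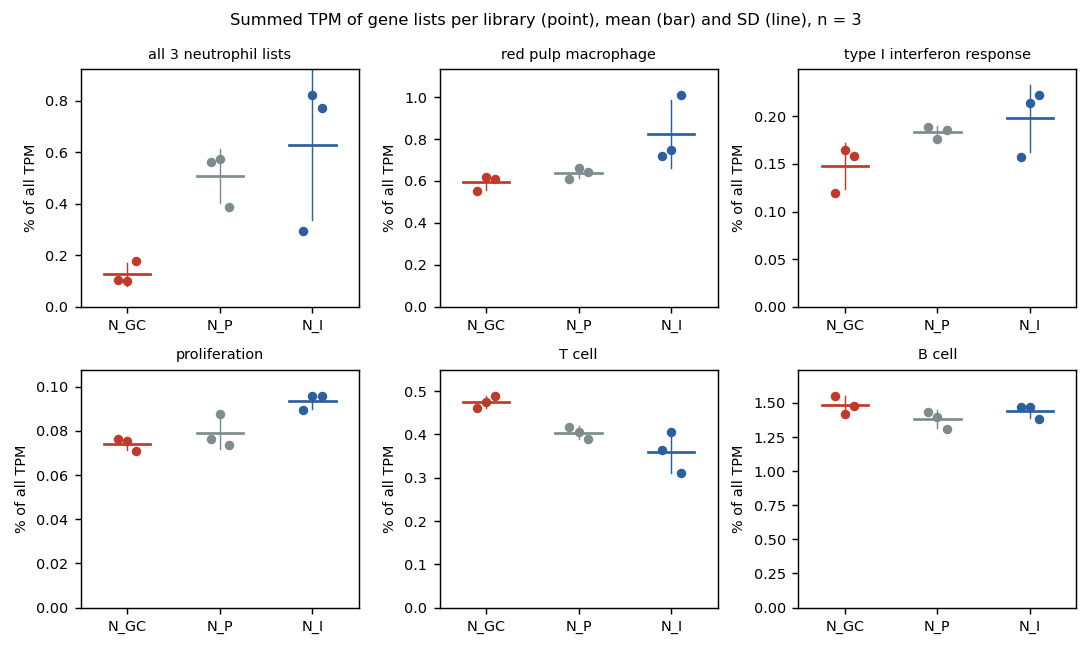
Summed TPM of 6 gene lists as a percent of all TPM in each tumour-free library; points are libraries, bars are means and lines are SD (n = 3). The neutrophil share is 0.0988% to 0.178% in N_GC and 0.292% to 0.823% in N_I, and the T cell share is above all N_I values in each N_GC library.

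Other granulocytes showed smaller or fewer changes. In the mast cell and basophil list 4 of 14 fell. Prss34, a basophil tryptase, was at 0.13, 0.33 and 0.14 TPM in N_GC and at 1.16, 11.9 and 6.88 TPM in N_I (-2.34, adjusted p = 0.00986, limma). Mcpt8, another basophil protease, was at 1.36, 1.75 and 1.93 TPM in N_GC against 2.76, 11.4 and 8.25 TPM in N_I (-1.50). Hdc, the enzyme that makes histamine and is also expressed by neutrophils, was at 3.67, 3.42 and 7.62 TPM in N_GC against 10.3, 16.6 and 24.6 TPM in N_I (-1.61). Kit, given above, was the other. The groups of these 4 genes did not overlap, but Prss34 was below 1 TPM in all N_GC libraries. The list had 1 call without N_I replicate 96 and 2 without N_I replicate 92 or N_GC replicate 36; Prss34 lost its call without N_I replicate 96, and Mcpt8 without any library but N_I replicate 18. None of the 10 eosinophil genes passed (median -0.51).

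Of the monocyte genes, 4 of 10 classical and 1 of 9 nonclassical ones were lower, by smaller amounts. Ccr2, the receptor that brings classical monocytes out of the marrow, was at 19.4, 17.9 and 21.4 TPM in N_GC and at 31.5, 40.5 and 40.1 TPM in N_I (-0.89, SE 0.16, adjusted p = 0.00668, limma). Ms4a6c was at 18.8, 27.3 and 27.5 TPM in N_GC against 40.4, 57.6 and 49.3 TPM in N_I (-0.98). The lectins Clec4a3 (-0.72) and Clec4a1 (-0.65) also fell, which made 4 of 10 classical monocyte genes (median -0.70). Ly6c2 was among the 6 that did not pass. The list kept 1 call without N_GC replicate 11, N_I replicate 92 or N_I replicate 96, 2 without N_GC replicate 94, and had 6 without N_I replicate 18. Of 9 nonclassical monocyte genes only Treml4 passed (60.9, 67.7 and 55.8 TPM in N_GC against 75.4, 91.05 and 137 TPM in N_I, -0.67), and not without any 1 library other than N_I replicate 18.

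Some receptors that neutrophils, monocytes and macrophages share were also lower. Fcgr3, a low-affinity IgG receptor, was at 27.4, 29.7 and 33.5 TPM in N_GC and at 44.5, 64.9 and 70.99 TPM in N_I (-0.95, adjusted p = 0.0036, limma). The common Fc receptor gamma chain Fcer1g was at 81.7, 92 and 83.4 TPM in N_GC against 104, 144 and 175 TPM in N_I (-0.68). These were 2 of 11 Fc receptor genes, of which 5 had a difference above 0. Fcer1g lost its call without any 1 library other than N_I replicate 18. In the CD300 family of lipid-sensing myeloid receptors 4 of 7 fell (median -0.72). Cd300lf was at 18.2, 12.03 and 19.03 TPM in N_GC and at 29.9, 38.6 and 43.1 TPM in N_I (-1.14). Cd300a, an inhibitory member, was at 15.2, 14.4 and 16.6 TPM in N_GC against 23.7, 31.4 and 37.9 TPM in N_I (-0.95). Cd300lb (-0.94) and Cd300c2 (-0.72) were the others. Their groups did not overlap, and 2 calls were left without N_GC replicate 36 or N_I replicate 96. Cd300lb lost its call without either, and Cd300c2 without any library but N_I replicate 18. Itgam, the CD11b integrin chain of complement receptor 3, was at 18.96, 13.99 and 18.8 TPM in N_GC and at 28.2, 46.8 and 49.9 TPM in N_I (-1.19, adjusted p = 0.00327, limma). C3, the central complement component, was at 16.7, 18.4 and 10.3 TPM in N_GC and at 25.99, 47.95 and 44.7 TPM in N_I (-1.32). With C5ar1, 3 of 13 complement genes fell, a count that held without each library in turn but was 1 with only the 6 libraries fitted.

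Of 10 eicosanoid genes 3 were lower. Alox5, the 5-lipoxygenase that starts leukotriene synthesis, was at 2.24, 2.74 and 3.64 TPM in N_GC and at 6.51, 10.01 and 8.80 TPM in N_I (-1.28, SE 0.14, adjusted p = 0.000708, limma). Its helper protein Alox5ap was at 39.5, 35.6 and 44.8 TPM in N_GC against 72.2, 102 and 94.1 TPM in N_I (-1.13). Tbxas1, thromboxane synthase, was at 6.70, 6.61 and 6.18 TPM in N_GC against 10.1, 15.2 and 17.4 TPM in N_I (-0.99). Its call was lost without N_I replicate 92 or N_I replicate 96. None of the other 7 passed, the leukotriene enzyme gene Lta4h among them. Of the phagocyte oxidase, Cybb, the catalytic subunit gp91phox, was at 69.9, 72.8 and 65.5 TPM in N_GC against 88.8, 125 and 112 TPM in N_I (-0.63). The list had 2 calls among 7 members, of which 1 was left without N_GC replicate 11, N_GC replicate 36, N_I replicate 92 or N_I replicate 96. Chemokine genes had 5 calls of 29, among them Cxcr2, Ccr2 and Cxcl12. The receptor Ccr1 was at 7.45, 7.53 and 10.3 TPM in N_GC against 14.6, 19.9 and 19.3 TPM in N_I (-1.01; lost without N_I replicate 96). The ligand Ccl6 was at 52.3, 37.2 and 58.7 TPM in N_GC against 85.6, 93.1 and 100.02 TPM in N_I (-0.92). The count was 2 without N_I replicate 96 and 3 without N_GC replicate 11, N_GC replicate 36 or N_I replicate 92. In the S100 family of calcium-binding proteins 4 of 9 fell. Next to S100a8 and S100a9, S100a6 was at 43.9, 38.3 and 49.04 TPM in N_GC against 76.2, 73.7 and 93.7 TPM in N_I (-0.88). The other was S100a4 (-0.74), whose call was lost without N_GC replicate 36 or 94 or N_I replicate 92 or 96.

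Of the genes of red pulp macrophages, which take up old red cells and recycle iron, 4 of 16 fell, by small amounts. Slc40a1, the iron exporter ferroportin, was at 93.5, 113 and 99.3 TPM in N_GC and at 128, 195 and 265 TPM in N_I (-0.88, SE 0.18, adjusted p = 0.019, limma). Spic, the transcription factor that these cells need, was at 47.7, 58.9 and 49.7 TPM in N_GC and at 68.02, 85.1 and 98.9 TPM in N_I (-0.67, adjusted p = 0.0437, limma). Ftl1, ferritin light chain (-0.60), and Slc11a1, a metal transporter of phagosomes (-0.77), were the others, and the list median was -0.64. The groups did not overlap for these 4 genes, which were named because they were called. At most 1 member of the list passed without N_GC replicate 11, 36 or 94 or N_I replicate 92 or 96, against 6 without N_I replicate 18 and 1 with median-of-ratios scaling. Among marginal zone macrophage genes Nr1h3, the liver X receptor alpha, was at 2.65, 2.11 and 3.33 TPM in N_GC against 6.11, 15.8 and 20.9 TPM in N_I (-1.91, adjusted p = 0.0331, limma). The scavenger receptor Colec12 was at 4.43, 3.99 and 3.30 TPM in N_GC against 7.41, 7.22 and 8.58 TPM in N_I (-0.84). They were 2 of 7 members, and neither passed without N_GC replicate 11, 36 or 94 or N_I replicate 92 or 96. Marco, a scavenger receptor of the same cells, overlapped between the groups, with 10.9, 13.3 and 7.38 TPM in N_GC and 13.5, 11.1 and 21.9 TPM in N_I (-0.50, adjusted p = 0.364, limma). Of 12 genes of C1q and efferocytosis 1 passed, Stab2, a scavenger receptor of sinus endothelium (17.1, 12.8 and 16.2 TPM in N_GC against 25.3, 25.9 and 29.1 TPM in N_I, -0.77; lost without N_I replicate 96). In the endothelial and stromal list, 3 of 12 fell: Stab2, the smooth muscle actin Acta2 (-0.90) and the chemokine Cxcl12 (-0.87). Of 22 dendritic cell genes 2 fell, Sirpa (63.3, 68.8 and 66.7 TPM in N_GC against 88.3, 128 and 144 TPM in N_I, -0.82) and Itgax, CD11c (-0.77), both of which macrophages also express. Itgax lost its call without N_GC replicate 36 or 94 or N_I replicate 92 or 96, and Cxcl12 without any library but N_I replicate 18.

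Genes of the type I interferon response, an antiviral programme, had 8 of 43 called lower (median -0.49). A difference below 0 was seen in 40 of 43, against 42.1% of all genes tested. Oasl2, a 2-5A synthetase-like protein, was at 0.96, 2.04 and 1.08 TPM in N_GC and at 3.76, 7.87 and 10.02 TPM in N_I (-1.74, SE 0.37, adjusted p = 0.0232, limma). Rsad2, the antiviral enzyme viperin, was at 1.44, 2.09 and 1.44 TPM in N_GC and at 3.23, 6.04 and 7.86 TPM in N_I (-1.28, adjusted p = 0.0312, limma). Eif2ak2, the RNA-sensing kinase PKR, was at 3.91, 5.39 and 4.12 TPM in N_GC against 6.47, 9.93 and 9.95 TPM in N_I (-0.83). Each of these had N_GC below N_I in every library, with N_I replicate 18 nearest to N_GC. Oas1a (-1.38), Oas1g (-1.38) and Ifit3b (-1.31) have near-identical paralogs and are uncertain as single genes. Mx1 (-1.02, adjusted p = 0.22) and Isg15 (-0.80, adjusted p = 0.15; both limma) did not pass. Of the list, 0 passed without N_GC replicate 11, N_I replicate 92 or N_I replicate 96, 1 without N_GC replicate 94, 3 without N_GC replicate 36, 19 without N_I replicate 18, and 0 with only the 6 libraries fitted. None of 20 interferon-gamma response genes passed (median 0.03).

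Among 44 proliferation genes 5 fell, all of them genes of mitosis or nucleotide supply. The list median was -0.47, and 41 of 44 were below 0, against 42.1% of all genes tested. Ube2c, a ubiquitin-conjugating enzyme of mitotic exit, was at 11.01, 11.97 and 8.75 TPM in N_GC and at 19.1, 25.5 and 26.8 TPM in N_I (-1.09, adjusted p = 0.00577, limma). Cdk1, the mitotic kinase, was at 10.3, 12.96 and 7.23 TPM in N_GC and at 19.4, 23.2 and 28.9 TPM in N_I (-1.17, adjusted p = 0.0185, limma). Ccnb2, a mitotic cyclin (-1.01), Birc5, survivin (-0.91), and Rrm2, a ribonucleotide reductase subunit (-0.90), completed the set. Mki67, the usual marker of cycling cells, was at 9.85, 10.6 and 8.58 TPM in N_GC and at 15.6, 21.9 and 22.7 TPM in N_I without overlap, but did not pass (-0.97, adjusted p = 0.096, limma). The replication helicase genes Mcm2 (-0.01), Mcm4 (0.02) and Mcm5 (-0.08) were among the 39 that did not pass and were picked after their values were seen. Whether genes of mitosis and of replication differ was not tested. Counts were 10 with median-of-ratios scaling, 15 with array weights, 1 without N_GC replicate 94, N_I replicate 92 or N_I replicate 96, 2 without N_GC replicate 36 and 3 without N_GC replicate 11.

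No erythroid gene of 37 passed, although the list varied widely inside N_GC: Hbb-bs, a beta globin with a near-identical partner gene, was at 2139, 3647 and 812 TPM in N_GC and at 2361, 2996 and 1676 TPM in N_I (-0.30, SE 0.51, adjusted p = 0.826, limma). The erythroid share of TPM was 0.702%, 1.13% and 0.282% in N_GC and 0.735%, 0.932% and 0.552% in N_I, so the groups overlapped. None of 15 megakaryocyte and platelet genes passed (median -0.30), and of 13 stem and progenitor genes only Kit did.

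T cell genes had small differences above 0, and 1 of 33 passed. The pan-T chain Cd3e was at 214, 224 and 225 TPM in N_GC and at 166, 186 and 139 TPM in N_I (0.44, SE 0.15, adjusted p = 0.147, limma). Cd4 was at 109, 125 and 109 TPM in N_GC and at 86.6, 104 and 75.2 TPM in N_I (0.37). Cd8a was at 81.2, 89.1 and 93.7 TPM in N_GC and at 50.5, 70.7 and 68.2 TPM in N_I (0.48), and neither gene passed. The groups did not overlap for these 3 coreceptor and receptor genes. Cd247, the zeta chain of the T cell receptor complex, was the member that passed. It was at 132, 135 and 139 TPM in N_GC and at 100.3, 109 and 80.8 TPM in N_I (0.49, SE 0.10, adjusted p = 0.0211, limma). The call was lost without N_GC replicate 11, 36 or 94 or N_I replicate 96. All 33 members had a difference above 0 (median 0.38, range 0.07 to 0.55), while 42.1% of all genes tested were below 0. For 28 of 33 the groups did not overlap, against 23.3% of all genes tested. The summed T cell share was 0.462, 0.475 and 0.489% in N_GC and 0.363, 0.405 and 0.31% in N_I, without overlap (exact permutation p = 0.1, two-sided, the smallest that 3 against 3 allows). Members of 1 cell type's list move together in each library, so their number is not a number of replicates.

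Genes of the B cell list moved less than those of the T cell list. Cr2, complement receptor 2, was at 301, 349 and 243 TPM in N_GC and at 241, 271 and 237 TPM in N_I, and its groups overlapped (0.24, adjusted p = 0.573, limma). None of 25 B cell genes, 9 marginal zone B cell genes or 12 immunoglobulin constant genes passed, with list medians of 0.18, -0.07 and -0.52. For 9 of the 12 immunoglobulin constant genes the groups did not overlap, against 23.3% of all genes tested. Their summed share averaged 1.77% in N_GC and 2.09% in N_I, and that of plasma cell genes 0.159% and 0.195%. Neither share overlapped between the groups (exact permutation p = 0.1 each, two-sided, the smallest that 3 against 3 allows). Of 16 plasma cell genes only Jchain, the joining chain of secreted IgA and IgM, passed (656, 662 and 486 TPM in N_GC against 799.7, 942 and 993 TPM in N_I, -0.61; lost without N_GC replicate 94, N_I replicate 92 or N_I replicate 96). Pdcd1, which encodes the checkpoint receptor PD-1, was at 3.25, 4.03 and 4.15 TPM in N_GC and at 4.03, 4.95 and 3.98 TPM in N_I (-0.15, SE 0.16). Cd274, its ligand PD-L1, was at 26.8, 28.7 and 26.4 TPM in N_GC and at 26.2, 27.99 and 25.7 TPM in N_I (0.04, SE 0.12), and neither passed. Cd244a, a receptor of NK and myeloid cells, was the 1 call of 14 in that list (12.6, 12.4 and 11.1 TPM in N_GC against 18.8, 19.8 and 22.3 TPM in N_I, -0.71). No call was made among 20 cytotoxic and NK cell genes (median -0.01), 12 MHC class II genes (0.02), 13 MHC class I genes (0.03) or 86 cytosolic ribosomal protein genes (0.06).

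**Figure D4:**
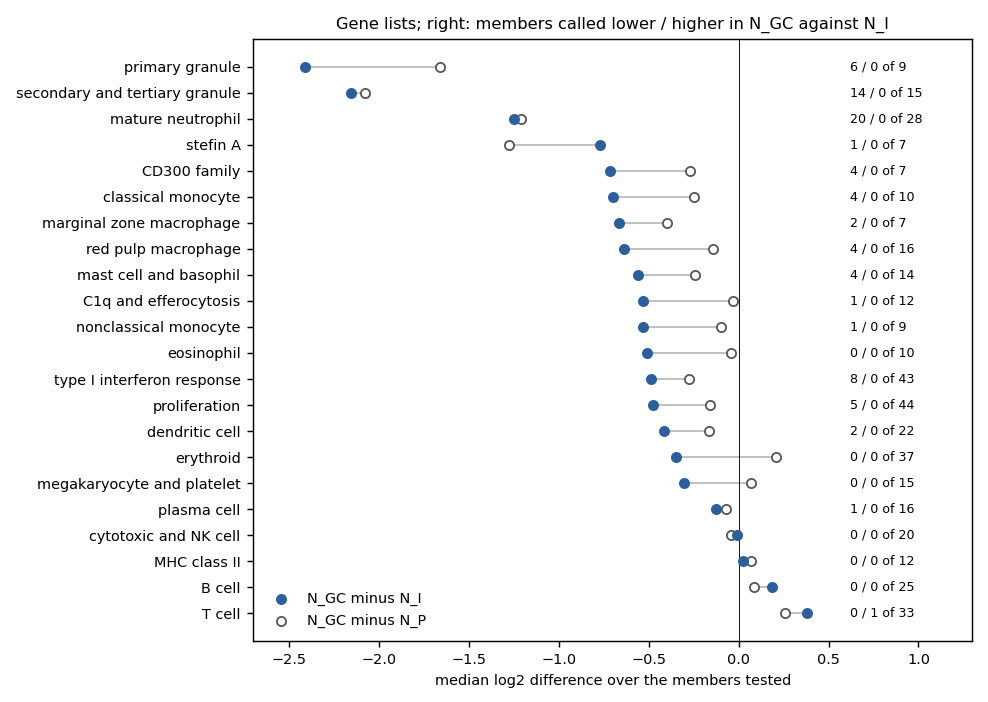
Median log2 difference of 22 gene lists for N_GC minus N_I (filled) and N_GC minus N_P (open), with the number of members called lower and higher in N_GC against N_I at the right. The 3 neutrophil lists lie far below 0 in both pairs, at -1.21 to -2.41, while the macrophage, interferon and proliferation lists lie closer to 0 against N_P than against N_I.

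Of the 75 genes that were higher in N_GC, the 15 named by size differed by 0.46 to 1.55. Bhlhb9, an armadillo-repeat protein gene of the X chromosome, had the largest rise among the genes named by size. It was at 159, 177 and 155 TPM in N_GC and at 36.2, 50.6 and 92.3 TPM in N_I (1.55, SE 0.27, adjusted p = 0.00619, limma), with 147, 76.9 and 87.1 TPM in N_P. The N_I libraries were spread widely, and the groups did not overlap, as the size rule required. Rbm12b1, an RNA-binding protein gene, was at 18.3, 18.97 and 18.8 TPM in N_GC and at 12.7, 12.5 and 12.8 TPM in N_I (0.53, adjusted p = 0.00564, limma). In N_P it was at 17.6, 16.2 and 18.99 TPM, and N_P minus N_I was called as well (0.44, adjusted p = 0.0437, limma). Dnah8, a dynein heavy chain gene, was at 102, 102 and 105 TPM in N_GC and at 60.7, 80.1 and 67.1 TPM in N_I (0.57, adjusted p = 0.00579, limma). These 3 lost their call only in the fit on the 6 libraries. Dusp10, a phosphatase of p38 and JNK, was at 29.6, 29.6 and 33.1 TPM in N_GC and at 21.7, 20.8 and 19.3 TPM in N_I (0.56). Flt3l, the growth factor of dendritic cell precursors, was at 78.2, 59.8 and 65.9 TPM in N_GC and at 52.8, 49.02 and 43.3 TPM in N_I (0.48). Shisa6 was at 62.8, 69.6 and 68.3 TPM in N_GC and at 41.2, 40.7 and 41.1 TPM in N_I (0.69, adjusted p = 0.0477, limma). It was also among the 24 calls of the 6-library fit. So was Gm50478, a predicted gene outside the naming rule that was chosen after its values were seen. It was listed at 14.9, 18.6 and 19.1 TPM in N_GC and at 0, 1.39 and 0 TPM in N_I (3.79, SE 0.50, adjusted p = 0.00178, limma). The others of the 15 with the largest rises (Cd247, Col11a2, Kyat1, Celsr1, Prrt1, Dzip1, Nip7, Fam78a and Zfp426) had differences of 0.46 to 0.63. Apart from Bhlhb9, Rbm12b1 and Dnah8, each of the 15 lost its call without at least 4 of the 6 libraries in turn, with N_GC replicate 36 or N_I replicate 96 among them.

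Against N_P, which shares the N_GC libraries with the comparison above, the neutrophil genes were lower again. In that pair 195 of 16635 genes were called (1.17%), 124 lower in N_GC (0.745%) and 71 higher (0.427%). The neutrophil lists held 30 of the 124: 5 of 9 primary granule genes (median N_GC minus N_P -1.66), 10 of 15 secondary and tertiary granule genes (-2.08) and 15 of 28 mature neutrophil genes (-1.21). Ngp was at 16.3, 21.3 and 43.4 TPM in N_GC and at 416, 564 and 223 TPM in N_P (-3.86 for N_GC minus N_P, adjusted p = 0.00315, limma). Lrg1 was at 0.70, 1.09 and 1.69 TPM in N_GC and at 37.2, 22.6 and 33.4 TPM in N_P (-3.89, adjusted p = 3.85e-06, limma). Mpo was at 1.05, 1 and 0.88 TPM in N_GC and at 8.37, 15.4 and 7.02 TPM in N_P (-2.44, adjusted p = 0.00844, limma). Csf3r was at 40.8, 33.2 and 74.6 TPM in N_GC and at 127, 86.2 and 133 TPM in N_P (-1.26, adjusted p = 0.0311, limma). The N_GC libraries lay below all N_P libraries for these 4 genes.

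Most other lists had few or no calls against N_P. No member of the red pulp macrophage (16), type I interferon (43), proliferation (44), classical monocyte (10) or T cell (33) lists was called, with medians of -0.14, -0.27, -0.16, -0.25 and 0.26 for N_GC minus N_P. Spic was at 47.7, 58.9 and 49.7 TPM in N_GC and at 48.8, 70.2 and 69.6 TPM in N_P. Slc40a1 was at 93.5, 113 and 99.3 TPM in N_GC and at 108, 126 and 112 TPM in N_P, with overlap for both. A p that misses the threshold does not show that the groups are alike, and whether these lists differ more from N_I than from N_P was not tested. Kit, Sirpa, Acta2, Cd300a and Rbm12b1, called in N_GC against N_I, were not called in N_GC against N_P. In N_P against N_I each was called, so N_I differed from both other groups. There N_P minus N_I was -0.71 for Kit, -0.63 for Sirpa, -0.79 for Acta2, -0.68 for Cd300a and 0.44 for Rbm12b1 (adjusted p 0.0351 to 0.0437, limma). Heat shock genes gave 7 of the 124 lower calls, 7 of 12 members (median -0.91), and their median for N_GC minus N_I was 0.21 with 0 calls. In N_P against N_I 10 of the 12 were called (median 1.09 for N_P minus N_I), against 0.571% of all genes tested, so N_P was the group that stood apart. Lower calls were 3 of 13 myeloid transcription factors, 3 of 9 S100 genes and 3 of 29 chemokine genes, against 0.745% of all genes tested. Among them were S100a8, S100a9 and Cxcr2, given above with the mature neutrophil genes, and Cebpe, Cebpd and Nfe2. The cholesterol list had 2 higher calls of 20, against 0.427% of all genes tested. Hspa8, a constitutive Hsp70, averaged 990.4 TPM in N_GC, 1879 TPM in N_P and 840.5 TPM in N_I.

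In tumour-bearing mice the same pair of codes differed in far more genes, with 10224 of 16635 (61.5%) called between T_GC and T_I, 8109 higher (48.7%) and 2115 lower (12.7%) in T_GC. The scaling matters there: median-of-ratios factors shift a gene's difference by a median of -0.43 in that pair and of -0.03 in N_GC against N_I, so values under both scalings are given. The difference between the 2 differences, (N_GC minus N_I) minus (T_GC minus T_I), passed for 6717 genes (40.4%), 1153 above 0 (6.93%) and 5564 below 0 (33.4%); with median-of-ratios scaling the split was 3310 above and 2273 below.

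Neutrophil genes were lower under code GC with and without a tumour. In T_GC against T_I, 8 of 9 primary granule genes, 14 of 15 secondary and tertiary granule genes and 27 of 28 mature neutrophil genes were lower (medians -3.36, -1.70 and -1.78). Camp averaged 9.37 TPM in N_GC and 216 TPM in N_I, and 1874 TPM in T_GC and 4966 TPM in T_I, so its fall was larger without a tumour (-4.19 against -1.44; test of the difference, adjusted p = 0.0133, limma, and 0.0409 with median-of-ratios scaling). Mpo averaged 0.98 TPM in N_GC and 23.5 TPM in N_I, and 154 TPM in T_GC and 1784 TPM in T_I (-3.40 against -3.55; adjusted p of the difference = 0.86, limma). S100a9 averaged 422 TPM in N_GC and 2641 TPM in N_I, and 25505 TPM in T_GC and 101874 TPM in T_I (-2.61 against -2.03; adjusted p of the difference = 0.401, limma). Tumour-bearing spleens thus held a far higher level of this gene under both codes. Camp, Mpo and S100a9 were among the genes named for a large fall in N_GC against N_I. The test of the difference uses those values again, which favours a larger fall without a tumour. Mpo averaged 0.98 TPM in N_GC, where the log2(TPM + 1) scale limits how far a gene can fall. Among the secondary and tertiary granule genes the test of the difference passed for 3 above 0 and 3 below 0 (3 and 1 with median-of-ratios scaling), and among mature neutrophil genes for 8 above 0 and none below (13 with median-of-ratios scaling). Over all genes tested 40.4% passed, 6.93% above 0 and 33.4% below 0. On deposited TPM, neither list passed more often in total than all genes did.

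Interferon and red pulp genes went the other way between the tumour states. In T_GC against T_I, 35 of 43 type I interferon genes were higher and 0 lower (25 higher and 2 lower with median-of-ratios scaling), and the test of the difference passed below 0 for 40 of 43 (32). Of the red pulp macrophage genes, 12 of 16 were higher in T_GC (8) and 15 of 16 passed the test of the difference (10). Over all genes tested, 48.7% were higher in T_GC and 33.4% passed the test of the difference below 0. With median-of-ratios scaling 2273 genes passed that test below 0. The share of all genes higher in T_GC under that scaling is not given here, so the bracketed counts lack it. Spic averaged 52.1 TPM in N_GC and 84.01 TPM in N_I, and 57.9 TPM in T_GC and 11.7 TPM in T_I (-0.67 against 2.21; adjusted p of the difference = 1.62e-06, limma). Rsad2 averaged 1.66 TPM in N_GC and 5.71 TPM in N_I, and 5.02 TPM in T_GC and 1.25 TPM in T_I (-1.28 against 1.42; adjusted p of the difference = 0.000174, limma). Of the T cell genes 32 of 33 were higher in T_GC than in T_I (31 higher and 1 lower with median-of-ratios scaling), and 31 passed the test of the difference below 0 (29), the larger rise being in tumour-bearing mice. Stefin A genes had larger falls on the log2(TPM + 1) scale with a tumour. Of the 7 genes, 6 passed above 0 under either scaling, with a median of -3.56 for T_GC minus T_I. Without a tumour their summed share was only 0.00157% of TPM in N_GC and 0.00448% in N_I. At such low values this scale limits how far a gene can fall. Stfa2l1, at 23.1 TPM on average in N_I, did not pass (-1.90 against -2.84, adjusted p of the difference = 0.25, limma).

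**Figure D5:**
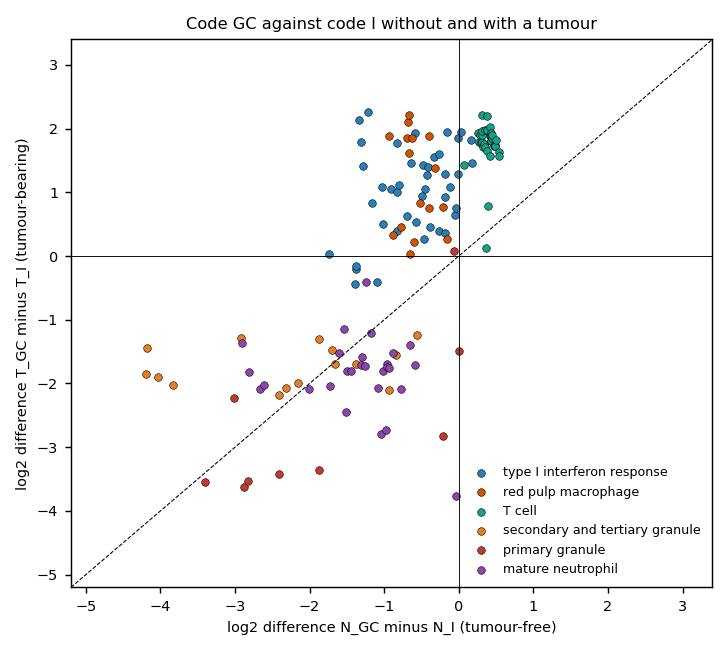
Log2 difference N_GC minus N_I (horizontal) against T_GC minus T_I (vertical) for members of 6 gene lists; the dashed line marks equal differences. Neutrophil genes lie in the lower left, interferon and red pulp genes mostly in the upper left, and T cell genes in the upper right; the vertical axis is from deposited TPM, and median-of-ratios scaling would move its points down by about 0.43.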

How the data were processed

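Spleen RNA was sequenced from 18 samples in 6 groups of 3. Per the submitters' processing notes, the tools fastp and RSEM and the genome build GRCm39 were used; other steps are not given in the sources used here. The deposited table holds TPM for 56876 genes, and each library sums to the same total within rounding. With no read counts, depth is unknown and no count model was run. Assembled transcripts without a gene symbol were tested and not named.

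Groups follow the titles. TPM of at least 1 in at least 3 of the 18 libraries was required, leaving 16635 genes. Log2(TPM + 1) was fitted with limma 3.58.1 (trend, 6 group means, 12 residual degrees of freedom, R 4.3.3), moderated two-sided p-values were adjusted by Benjamini-Hochberg over all genes tested, and a gene was called at an adjusted p under 0.05; the fit was tested on simulated data. Adjusted p-values in the report are from this fit. Summed shares of TPM were compared by exact permutation tests. Lists are described by counts and medians, with no set test.

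Named genes were the 15 largest rises and the 15 largest falls among called genes that averaged 5 TPM or more where they were higher, did not overlap between the groups and had an established symbol, up to 4 called members of each list and direction by smallest p, and a fixed set. Other list members, called or not, were named after their values were seen. The members and the 51 gene lists were chosen with earlier results of these data known. Genes present in several lists count in each. List genes were matched by symbol; a few older symbols found no match and were left out.

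The alternatives were a pseudocount of 0.1, no filter or one at 5 TPM, scaling by median-of-ratios factors, TPM without globin, immunoglobulin, T cell receptor, ribosomal and mitochondrial genes, only the libraries compared, array weights, robust moderation, and leaving out each library. Promoters were read from a RefSeq table on GRCm38.p6 and searched on both strands.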

Additional observations from a re-analysis of the deposited data

Results flagged for a closer look

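Among the 30 genes named for the size of their difference, 13 had a difference between N_GC and N_I that was not the same as that between T_GC and T_I by the test of the difference itself, (N_GC minus N_I) minus (T_GC minus T_I). Over all genes tested 40.4% passed that test, so a share of this size is near the background. The 30 genes were chosen for a large N_GC minus N_I difference, which this test uses again. That choice favours a larger difference without a tumour, and its part in these results was not tested.

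Of the neutrophil genes, 4 fell more without a tumour, by -2.75 for Camp (adjusted p = 0.0133, limma), -2.34 for Ngp (0.0253), -2.13 for Ltf (0.0310) and -0.97 for Lrg1 (0.0439). With median-of-ratios scaling the values were -2.28 for Camp (adjusted p = 0.0409, limma), -1.89 for Ngp (0.0742), -1.66 for Ltf (0.0961) and -0.42 for Lrg1 (0.438), so Camp alone passed under both scalings. Over the whole lists, on deposited TPM, the test passed above 0 for 3 primary granule, 3 secondary and tertiary granule and 8 mature neutrophil genes. It passed below 0 for 3 secondary and tertiary granule genes and for no gene of the primary granule or mature neutrophil list.

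Of the genes that rose, 8 rose less without a tumour: Fam78a by -1.30 (adjusted p = 2.11e-05, limma), Dusp10 by -1.30 (9.50e-05), Cd247 by -1.24 (2.39e-05), Rbm12b1 by -1.03 (3.11e-05), Dzip1 by -1.02 (0.000372), Celsr1 by -0.91 (0.000659), Prrt1 by -0.89 (0.00110) and Flt3l by -0.68 (0.00329). With median-of-ratios scaling the first 7 kept an adjusted p under 0.05, and Flt3l did not (-0.26, adjusted p = 0.192, limma). Dnah8 rose more without a tumour, by 0.41 (adjusted p = 0.0280, limma), and by 0.85 with median-of-ratios scaling.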

How the results depend on the processing

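The count of genes called in N_GC against N_I (458, 75 higher and 383 lower) was 24 with only the 6 libraries fitted (4 higher, 20 lower). There fewer libraries set the spread and the filter, and 15156 genes were tested. The higher count was 46 without the filter and 131 with array weights. Leaving out 1 library gave 145 to 686 calls, 9 to 60 higher and 136 to 626 lower. For N_GC against N_P (195, 71 higher and 124 lower) the counts were 32 (5 and 27) with only those 6 libraries and 630 (358 and 272) with array weights; median-of-ratios scaling gave 32 higher and 192 lower, and leaving out 1 library gave 69 to 138 calls, 12 to 36 higher and 52 to 105 lower. The tumour test split into 3310 above and 2273 below 0 with median-of-ratios scaling. The cause of these shifts was not tested. Hbb-bs, which was not called, ranged from -0.79 to 0.29 over its alternatives. With median-of-ratios scaling 4 list medians near 0 changed sign: interferon-gamma response (-0.0096), MHC class I (-0.0023), MHC class II (-0.0118) and G-CSF receptor and STAT signalling (-0.0305). The neutrophil share difference was -0.503 percentage points, and -0.713 on TPM without globin and similar genes. No paired analysis was possible because the groups share no replicate numbers. Without read counts, the depth behind a value near 1 TPM is unknown.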
